A study of Mus musculus with 29 samples.

Results

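The Grb10 imprinted region was followed in 29 mouse libraries of 15 groups as the CpGs lying on chromosome 11 between 11922001 and 11930000 (mm9, counted from 1). The interval was chosen by its place beside an imprinted gene and with its values in several of these groups already known, so every level below is a description and carries no p-value. Across all libraries 114 CpGs of the interval had at least 1 read, 77 to 104 in any single library. Of the 114, the 68 read in all 29 libraries were used for comparisons between groups, out of 893596 autosomal CpGs read in all of them. They lie in chr11:11925612-11926883, a cluster of 1272 bp, and carried 371 to 1519 reads per library. The remaining 46 were missing from at least 1 library.

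Grb10 encodes an adaptor protein that binds activated insulin and growth factor receptors and restrains growth. The gene is imprinted: most mouse tissues transcribe it from the maternal copy at an upstream promoter, while neurons use the paternal copy at downstream promoters. At such loci a differentially methylated region receives its mark in 1 parental germline and keeps it on that copy alone through the divisions of the embryo and adult, so that DNA of both copies together reads as partly methylated. Embryonic stem cells carry these marks as well.

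The assay was reduced representation bisulfite sequencing (RRBS), in which DNA is cut at CpG-rich sites and methylated cytosines are told from unmethylated ones by bisulfite conversion. The embryonic stem cells were male mouse lines, named J-34, J-35 and J-37, which entered their media at passage 4, either serum with LIF (S/L) or the inhibitor media 2i/L, a2i/L and PKCi/L. They were collected after 6 passages (p10) or 16 passages (p20). All 3 lines were measured in S/L and in 2i/L at both passages, and again at p23, 3 passages after moving from 16 passages in 2i/L back to S/L. The p30 group, 10 passages after that move, held J-37 and a library titled J-35 whose other labels name J-34, so its line is uncertain. Lines J-34 and J-35 made up the a2i/L p20 and the PKCi/L p20 group. Single libraries came from J-34 after 6 passages with PD, from J-34 after 6 passages with CHIR, from J-34 in a2i/L p10 and from J-35 in PKCi/L p10. The usual 2i recipe combines a Mek1/2 inhibitor (PD in the field's shorthand) with a Gsk3 inhibitor (CHIR). What a2i/L and PKCi/L contain is not in the labels. The MEK DKO library came from male induced pluripotent stem cells made from Mek1fl/fl;Mek2-/- fibroblasts with lentiviral factors, cloned, deleted for Mek1 by Cre and grown on feeders in S/L. Their counterpart with both genes intact was not among the libraries, so genotype and cell origin cannot be told apart there. Wild-type neonatal keratinocytes (1 library, female) stood beside 2 male libraries labelled 2i/L keratinocytes, whose derivation is not given in the sources used here. Whether feeder cells were removed before DNA was taken is not given in the sources used here.

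Libraries held 8359802 to 22433006 reads over CpGs, with the fewest in the wild-type keratinocytes. By their pattern of read depth over autosomal CpGs, the libraries fell into 3 coverage sets of 11, 9 and 9: the p10 groups with PD, CHIR and MEK DKO, then p23 with S/L p20 and 2i/L p20, then a2i/L p20, PKCi/L p20, p30 and both kinds of keratinocytes. All 29 libraries correlated most closely with a library of their own set. The sets were drawn from these same correlations, so this describes them and does not test them. The mean correlation of a library was 0.522 to 0.723 with its own set and 0.451 to 0.585 with the other sets. Comparisons of p20 with p10, of p30 with p23 or with any S/L or 2i/L stem cell group, and of a2i/L p20 or PKCi/L p20 with S/L p20 therefore run across sets, and set and condition cannot be told apart in them. Inside the Grb10 region the first 500 bp window took 25.4 to 37.4% of the reads of a library, the central one 52.2 to 68.3% and the third 3.58 to 13.9%. The weight of the third window thus differed most between libraries as a ratio and least in points.

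The only Grb10 sequence that could be tied to measured CpGs was the upstream promoter, shown here because its level is set beside that of the cluster. RefSeq (GRCm38.p6) lists it at chr11:12037371-12037670 on the minus strand, 250 bases before to 50 after the start of transcription. Capitals mark the 24 CpGs read in every library.
Grb10 upstream promoter: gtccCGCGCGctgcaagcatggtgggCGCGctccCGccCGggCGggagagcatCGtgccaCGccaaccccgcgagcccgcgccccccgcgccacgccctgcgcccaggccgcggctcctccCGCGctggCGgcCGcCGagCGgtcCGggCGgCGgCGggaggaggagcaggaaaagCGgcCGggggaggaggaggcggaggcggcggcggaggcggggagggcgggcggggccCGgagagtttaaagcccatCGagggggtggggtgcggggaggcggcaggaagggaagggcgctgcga
This stretch holds 45 CpGs, against a median of 7 over 32851 RefSeq promoters of equal length. It was placed on the deposited coordinates by the spacing of its CpGs, and all 39 CpGs measured there matched. Among places where every measured CpG matched, the next best held 3. Places with some mismatches were not ranked. The measured promoter CpGs begin 10514 bp beyond the last CpG of the cluster, on the side of higher coordinates. Because the gene runs on the minus strand, the cluster lies downstream of this start. RefSeq lists a second Grb10 promoter at chr11:12027922-12028221, also downstream, with 9 CpGs. Only 2 measured CpGs matched it, equally well at 2 places, so it was not placed and its level is not given. If both promoters shift equally between builds, it would fall inside the interval, between the cluster and the upstream promoter. This was not tested. Exons and introns of the build used were not analysed here.

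In S/L the region was partly methylated in every library. The level, taken as methylated reads over all reads of the 68 CpGs, was 48.3% in J-34, 49.2% in J-35 and 45.9% in J-37 at p10, a mean of 47.8% ± 1.73 (SD, n = 3). At p20 it was 45.6% in J-34, 43.1% in J-35 and 41.7% in J-37, a mean of 43.5% ± 1.97 (SD, n = 3). The lowest p10 library and the highest p20 library were nearly level, and each line was lower at p20 than at p10, by differences of -2.63, -6.10 and -4.15 points. The mean difference of -4.30 points became -1.11 on the 31 CpGs with 5 or more reads in every library. Single CpGs were partly methylated too: in S/L p10, 62 of the 65 CpGs with 10 or more pooled reads lay between 30 and 70%, with a median of 48.9%. Reads were not assigned to parental copies, so 1 marked copy in each cell and a mixture of fully marked and unmarked cells cannot be told apart.

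**Figure D1:**
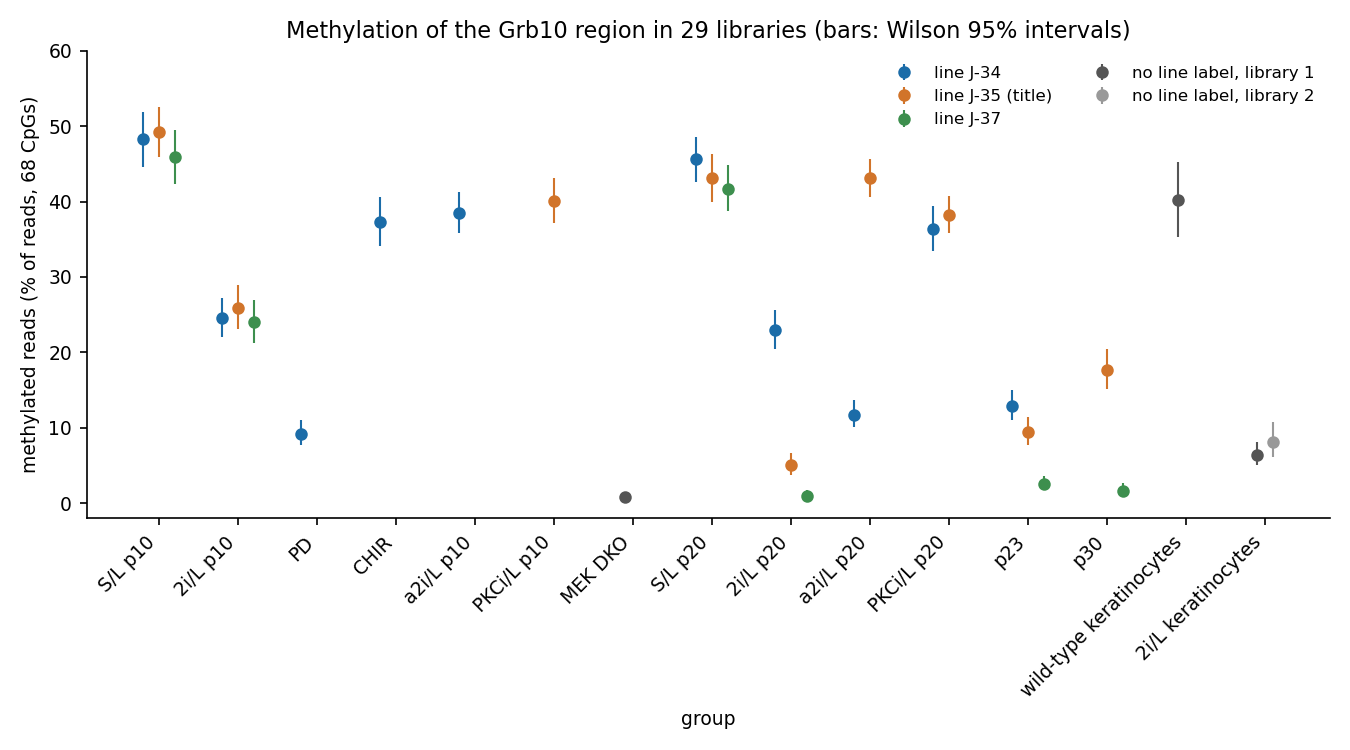
Share of methylated reads (%) over the 68 CpGs of the Grb10 region in each of 29 libraries, by group on the horizontal axis; points are libraries, coloured by the line in their title, and bars are Wilson 95% intervals. S/L libraries lie between 41.7 and 49.2%, 2i/L p10 between 24.04 and 25.9%, and the p23, p30 and 2i/L keratinocyte libraries reach at most 17.6%.

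In 2i/L the region carried about 1 methylated read in 4 after 6 passages. J-34 had 24.5%, J-35 had 25.9% and J-37 had 24.04%, a mean of 24.8% ± 0.968 (SD, n = 3), and no 2i/L library reached an S/L p10 library. The mean difference was -23.0 points, and within lines it was -23.7, -23.3 and -21.8 points, so the 3 lines had lost nearly equal amounts. Of 64 CpGs with 10 or more pooled reads in both groups, 61 were lower in 2i/L p10 and 2 higher. Over 500 bp windows, 2 of the 3 windows of the region lay at least 20 points lower with no overlap of libraries. Much of the measured genome did as well: 49.6% of 76316 autosomal windows met the same rule. Among autosomal windows that are partly methylated in S/L p10 and in wild-type keratinocytes, as the region is, 1580 of 1639 did.

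The level left in 2i/L p10 was higher here than in most windows that are partly methylated in S/L. Windows are called intermediate here where every S/L p10 library and the wild-type keratinocyte library had 30 to 70%. Among the 1639 autosomal windows of this kind, 2i/L p10 had a mean of 13.6% ± 0.435 and S/L p10 one of 50.8% ± 0.616 (SD, n = 3 each). The windows of the region starting at 11925501, 11926001 and 11926501, with 23, 39 and 6 CpGs, all belong to this class. At p10 in 2i/L they had 26.1%, 25.1% and 16.6% and lay above 1528, 1502 and 1146 of the 1639 windows. In 2i/L p20 they lay above 656, 546 and 879, and with PD above 268, 607 and 1102, so each stood lower among these windows there than in 2i/L p10, the third window with PD only slightly. The autosomal mean over CpGs moved from 31.6% to 13.9% between the same groups.

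After 16 passages in 2i/L the lines no longer matched. J-34 had 22.9% (240 of 1047 reads), J-35 had 5.01% (42 of 839) and J-37 had 0.955% (9 of 942). J-34 had thus kept the level it had at p10, with a difference of -1.63 points, while J-35 and J-37 were lower by differences of -20.9 and -23.1 points. The Wilson 95% intervals of the lines, 20.5 to 25.6%, 3.72 to 6.70% and 0.503 to 1.81%, did not overlap. Such intervals are too narrow throughout, because a read was counted at every CpG it covers. The group mean was 9.63% ± 11.7 (SD, n = 3), which lies -33.9 points from S/L p20 with no overlap, and -15.2 points from 2i/L p10, or -21.9 without J-34 at p20. The autosomal mean followed the same order of lines at p20, at 14.5% in J-34, 10.6% in J-35 and 7.52% in J-37. Against S/L p20, 2 of the 3 windows lay at least 20 points lower with no overlap, beside 46.0% of all windows and 70.5% of intermediate ones.

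The 3 windows of the region differed somewhat in these steps. The first window, 11925501, was the most methylated in S/L p10, at 59.4%, 56.5% and 51.1% in J-34, J-35 and J-37. The central window, 11926001, was the steadiest, at 44.4%, 45.2% and 43.6%. The third, 11926501, has 6 CpGs and 29 to 138 reads per library, and its S/L p10 values of 35.4%, 57.5% and 42.6% spread widely. It was also the window that missed the 20-point rule in 2i/L p20, because J-34 had 29.5%, above the 23.6% of J-37 in S/L p20. In the first window S/L p20 had 38.7% in J-34 against 52.9% and 56.4% in the other lines, and in the central window J-34 was the highest at 49.5%.

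Single CpGs moved with the cluster. In S/L p10 the highest was at 11925628, at 85.7% of 21 pooled reads, and the lowest at 11925797, at 19.05% of 21. In 2i/L p10 the CpGs had a median of 24.3% and 17 of 64 still lay between 30 and 70%. With the lines of 2i/L p20 pooled, none of 68 did, with a median of 10.3% and a highest value of 21.7%. Pooling hid the gap between lines: over all CpGs with 10 or more reads in a library, 13 of 59 lay between 30 and 70% in J-34, with a median of 21.4%, against 0 of 52 in J-35 and 0 of 53 in J-37. The most deeply read CpG of each window carried few reads per library. At 11925806 the counts in S/L p20 were 8 of 34 reads in J-34, 16 of 26 in J-35 and 11 of 23 in J-37, and in 2i/L p20 they were 6 of 31, 1 of 14 and 0 of 27. At 11926408 they were 16 of 28, 8 of 25 and 12 of 26 in S/L p20, and 7 of 27, 0 of 13 and 0 of 19 in 2i/L p20. At 11926770 they were 10 of 24, 10 of 21 and 5 of 17 in S/L p20, and 6 of 20, 3 of 32 and 0 of 23 in 2i/L p20. In line J-37, then, all 3 deep CpGs gave 0 methylated reads after 16 passages in 2i/L.

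**Figure D2:**
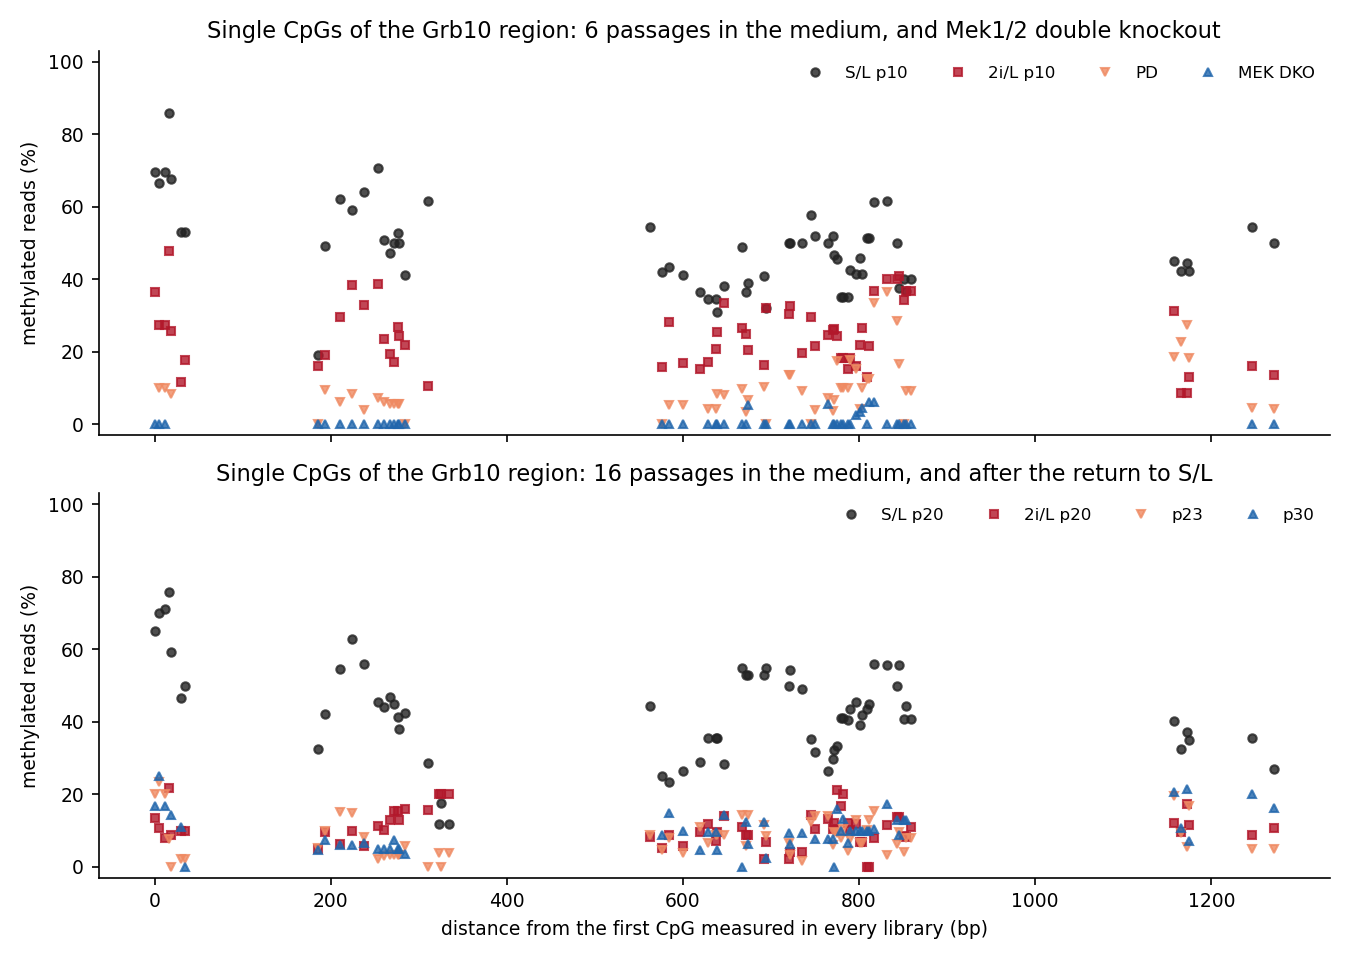
Methylated reads (%) at single CpGs of the Grb10 region against the distance in bp from the first CpG read in every library; each point pools the libraries of a group and needs 10 or more reads. Above, S/L p10 stands over 2i/L p10, then PD, then MEK DKO near 0; below, the highest CpG of p30 has 25%, of p23 23.3% and of 2i/L p20 21.7%, while S/L p20 stays above them at most CpGs.

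The region stayed low after 2i/L cells had returned to S/L. At p23, 3 passages after the return, J-34 had 12.9%, J-35 had 9.39% and J-37 had 2.56%, a mean of 8.29% ± 5.27 (SD, n = 3). The mean lay -35.2 points from S/L p20, with no overlap, and -1.34 points from 2i/L p20, with overlapping libraries. That last difference had no stable sign: within lines it was -10.0 points in J-34, 4.39 in J-35 and 1.60 in J-37, it was 0.919 on the CpGs with 5 or more reads, and it became 5.31 without J-34 in 2i/L p20 and 1.53 without J-37 at p23. In J-34 the level after the return was therefore lower than before it. With the lines pooled, none of 68 CpGs lay between 30 and 70% at p23, and 49 lay under 10%. By library, over all CpGs with 10 or more reads there, 24 of 62 lay under 10% and 4 between 30 and 70% in J-34. In J-35 32 of 54 lay under 10%, 1 between 30 and 70% and 1 above that, and in J-37 54 of 58 lay under 10%. All 68 pooled values were lower than in S/L p20.

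Most of the measured genome took the other course over the same passages. The autosomal mean was 29.6% ± 0.370 at p23 against 10.9% ± 3.51 in 2i/L p20, close to the 28.3% ± 0.353 of S/L p20 (SD, n = 3 each). Of all windows, 50.7% lay at least 20 points higher at p23 than in 2i/L p20 with no overlap of libraries, and 0 of the 3 windows of the region did. Against S/L p20, all 3 windows of the region were lower at p23, beside 0.992% of all windows. Intermediate windows averaged 48.3% ± 0.416 at p23, above their 38.4% ± 1.05 in S/L p20 (SD, n = 3 each). By the same rule 242 of the 1639 were higher at p23 than in S/L p20 and 22 lower. At p23 the windows of the region, at 7.14%, 8.28% and 10.6%, lay above 1, 5 and 7 of the 1639. Of 35074 windows lower in 2i/L p20 than in S/L p20, 753 (2.15%) were still lower at p23 by the same rule, and of the 1156 intermediate ones 21 (1.82%) were. These comparisons lie within 1 coverage set. The region was known to be low at p23 when it was chosen, so the counts place it among other windows and test nothing.

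At p30, 10 passages after the return, the library titled J-35 had 17.6% (Wilson 95% interval 15.1 to 20.4%) and J-37 had 1.60% (0.937 to 2.72%), a mean of 9.60% ± 11.3 (SD, n = 2). Both lay under every S/L library, and the mean difference from S/L p20 was -33.9 points. In J-37 the level had been 41.7% in S/L at p20 and 0.955% in 2i/L, then 2.56% at p23 and 1.60% at p30, so this line showed no more than a few points of change after its loss. For the library titled J-35, the p23 values of the 2 lines its labels name were 9.39% in J-35 and 12.9% in J-34, both below its 17.6%. The mean difference from p23 was 1.32 points with overlapping libraries, -6.69 without that library and 9.32 without J-37. Of the 3 windows, 2 were lower than in S/L p20, beside 0.200% of all windows and 0.976% of intermediate ones, across coverage sets. The autosomal mean at p30 was 31.8% ± 0.183 (SD, n = 2), and 149 of the 35074 windows lost in 2i/L (0.425%) were still lower.

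**Figure D3:**
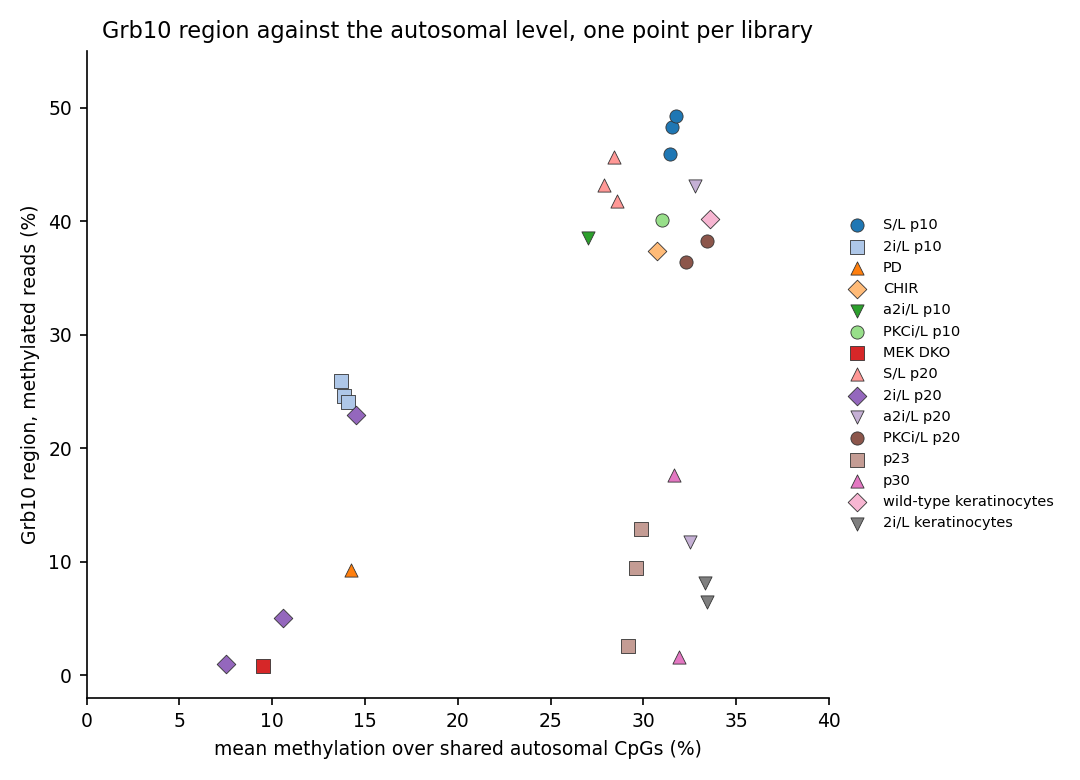
Methylated reads (%) of the Grb10 region against mean methylation (%) over the shared autosomal CpGs, with 1 point per library and colour and marker by group. The p23, p30 and 2i/L keratinocyte libraries and a2i/L p20 of J-34 lie at an autosomal level of 29.2% or more with the region at 17.6% or less, while S/L libraries at 27.9 to 31.8% have 41.7% or more.

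The DNA around the cluster followed it in some groups and not in others. The upstream promoter printed above was unmethylated throughout, at 0 to 1.72% of 132 to 574 reads in all 29 libraries. The CpG-dense windows around it, from 11936501 to 11938000, had means of 0 to 2.23% in all 15 groups. On the other side, 3 CpGs at chr11:11911760-11911927 were highly methylated in S/L p20, at 88.2% ± 8.33 (SD, n = 3). In 2i/L p20 they had 15 of 30 reads methylated in J-34 and 23.5% in J-35, where J-37 had only 7 reads, and 82.0% ± 6.32 at p23 (SD, n = 3). These flanking CpGs thus went down in 2i/L and were high again at p23, unlike the cluster, on 7 to 44 reads per library. Beyond the promoter, 3 CpGs at chr11:11938628-11938774 had a mean of 63.5% ± 16.7 at p23 (SD, n = 3). The mean was 29.2% ± 19.5 for 2i/L p20 and 26.3% ± 10.1 for S/L p20 (SD, n = 3 each). The p23 libraries lay above those of S/L p20 there and overlapped those of 2i/L p20. At p10 these CpGs had 46.2% ± 11.1 in S/L and 20.3% ± 4.15 in 2i/L (SD, n = 3 each, no overlap), with 19.6% for PD and 15.2% for MEK DKO, the same direction as the cluster. Within the interval itself, the isolated CpG at 11928513 had 14 of 15 pooled reads methylated at p23, against 2 of 11 in 2i/L p20 and 11 of 13 in S/L p20. It and its neighbour at 11928197 are too thinly read to compare further. The windows they lie in, and that at 11923501, were not kept because no CpG in them was read in all libraries.

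**Figure D4:**
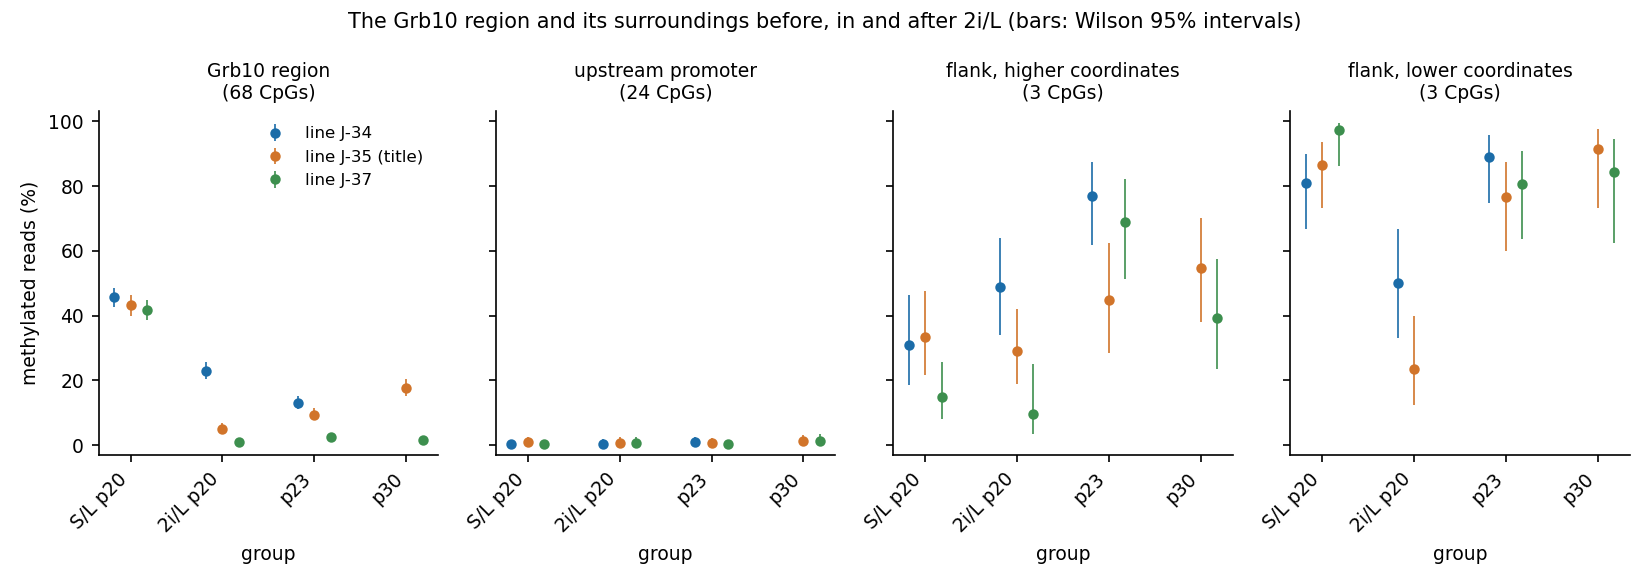
Methylated reads (%) per library, from S/L p20 to p30, at the Grb10 region (68 CpGs), the upstream promoter (24 CpGs) and the flanking windows of 3 CpGs each on the higher and lower coordinate side; bars are Wilson 95% intervals and colours give the line. The flank on the lower side is at 76.5% or more again at p23, while the region is at 12.9% or less and the promoter stays near 0.

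PD alone went with a deep loss and CHIR alone with a small one. J-34 with PD had 9.23% (Wilson 95% interval 7.74 to 10.97%), which is -39.0 points from the same line in S/L p10 and below the 24.5% of that line in 2i/L p10. J-34 with CHIR had 37.3% (34.1 to 40.7%), -10.9 points from J-34 in S/L p10. The libraries shared 6 passages, a line and a coverage set. The autosomal means did not show the same gap between PD and 2i/L p10: they were 14.3% with PD, 13.9% ± 0.205 in 2i/L p10 (SD, n = 3) and 30.7% with CHIR. All 58 CpGs with 10 or more reads in both were lower with PD than in S/L p10, and 36 of them lay under 10%. Those kept highest were neighbours, at 11926429, 11926444 and 11926455, with 33.3%, 36.4% and 28.6% of 21, 11 and 14 reads. All 3 windows were at least 20 points below S/L p10 with PD, beside 49.5% of all windows and 96.7% of intermediate ones. With CHIR 1 window was, beside 2.67% of all windows and 12.4% of intermediate ones. With CHIR the difference from the S/L p10 mean, -10.5 points, was -4.64 on CpGs with 5 or more reads in every library. PD, CHIR, a2i/L p10, PKCi/L p10 and MEK DKO were all set against the same S/L p10 libraries, and single libraries allow no check against replicates.

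The cells without Mek1 and Mek2 had almost none of the mark. MEK DKO gave 8 methylated reads of 1017, or 0.787% (Wilson 95% interval 0.399 to 1.54%), the lowest level of all 29 libraries, although the cells grew in S/L. Of 54 CpGs with 10 or more reads, 47 were at 0 and the highest was 6.25%. The first window had 0 of 277 reads methylated. The Wilson interval allows a share of up to 1.37% there, and more if reads counted at several CpGs are allowed for. All 3 windows were at least 20 points below S/L p10, beside 51.4% of all windows and 98.7% of intermediate ones. The intermediate windows kept more, with a mean of 9.31%, and 0, 85 and 128 of the 1639 lay below the 3 windows of the region. The autosomal mean was 9.51%.

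Over the 68 CpGs together, the other inhibitor media left most of the mark in place, with 1 exception. In a2i/L p10 J-34 had 38.5% (Wilson 95% interval 35.8 to 41.3%), and in PKCi/L p10 J-35 had 40.1% (37.1 to 43.1%), -9.73 and -9.19 points from the same lines in S/L p10. In PKCi/L p20 J-34 had 36.4% and J-35 had 38.2%, a mean of 37.3% ± 1.30 (SD, n = 2), -6.17 points from S/L p20 with no overlap and -10.7 on CpGs with 5 or more reads. In a2i/L p20 the lines parted. J-35 had 43.1%, -0.0262 points from its own S/L p20 library. J-34 had 11.7% (10.0 to 13.7%), against 45.6% in its own S/L p20 library, and -26.8 points from its own a2i/L p10 library. The group difference from S/L p20, -16.1 points, was -0.374 without J-34 and -31.8 without J-35. The autosomal means of the a2i/L p20 libraries were nearly the same, at 32.5% in J-34 and 32.8% in J-35. The low value of J-34 came from the first window, at 17.9% of 335 reads, and the central window, at 6.74% of 786, whereas in the third 28 of 80 reads were methylated. In a2i/L p10 the third window, at 21.2% of 104 reads, lay -24.0 points from S/L p10 with no overlap. It was the 1 window of the 3 lower by the rule there, beside 11.1% of all windows and 44.7% of intermediate ones. None of the 3 windows was lower than S/L p20 by the rule in a2i/L p20 (0.360% of all windows were) or in PKCi/L p20 (0.160%).

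In keratinocytes the region was partly methylated in the wild type and low in the cells labelled 2i/L. The wild-type library had 40.2% of 371 reads (Wilson 95% interval 35.3 to 45.2%). The 2i/L keratinocytes had 6.41% of 951 reads (5.03 to 8.15%) and 8.15% of 552 (6.15 to 10.7%), a mean of 7.28% ± 1.23 (SD, n = 2). The difference was -32.9 points, and neither interval of the 2i/L libraries came near that of the wild type. All 3 windows lay at least 20 points lower, beside 2.40% of all windows and 8.30% of intermediate ones. Similar shares lay higher by the same rule, 2.30% and 8.85%. The autosomal means were alike at 33.6% and 33.4% ± 0.0443. Depth limits this comparison: on the CpGs with 10 or more reads, each library on its own CpGs, the difference was -8.82 points, and the wild type then rests on 3 CpGs. The cells also differ in labelled sex. Of 54 CpGs with 10 or more pooled reads in the 2i/L keratinocytes, 40 lay under 10% and 2 between 30 and 70%. The higher of these, at 11925836 and singled out after its values were seen, had 14 of 22 reads and 7 of 13 reads methylated in those libraries and 4 of 6 in the wild type. The same CpG had 0 of 13 in MEK DKO and 7 of 47 pooled reads at p23.

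In the order of group means the region ran from S/L p10 through S/L p20, wild-type keratinocytes, PKCi/L p10, a2i/L p10, PKCi/L p20 and CHIR to a2i/L p20 and 2i/L p10, and then to 2i/L p20, p30, PD, p23, 2i/L keratinocytes and MEK DKO. Of the 14 neighbouring pairs in this order, 13 overlapped once each library's Wilson interval was counted, and the exception was 2i/L keratinocytes above MEK DKO. The mean for a2i/L p20 matches neither of its libraries.

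All of 3 other imprinted regions stood near Grb10 in 2i/L p10, and Zrsr1 with Commd1 and Plagl1 also at p23. Plagl1 and Mest stood apart from it in the 2i/L keratinocytes. Zrsr1 with Commd1 (43 CpGs, chr11:22871863-22874252), Plagl1 (36 CpGs, chr10:12810598-12810994) and Mest (4 CpGs, chr6:30689254-30689333) were placed from general knowledge of the loci, without annotation of the build. In 2i/L p10 they had 20.04% ± 1.11, 21.1% ± 0.691 and 23.3% ± 3.63 (SD, n = 3 each), beside 24.8% at Grb10. At p23 they had 7.33% ± 4.75, 8.07% ± 5.44 and 17.2% ± 4.51 (SD, n = 3 each), beside 8.29%. The low a2i/L p20 library of J-34 was low at Zrsr1 with Commd1, at 5.59%, and at Plagl1, at 8.39%, but had 33.3% of 66 reads at Mest. In the 2i/L keratinocytes Zrsr1 with Commd1 was as low as Grb10, at 3.78% and 3.87% against 48.5% in the wild type. Plagl1 had 43.3% and 38.4% there against 48.0%, and Mest had 42.6% and 19 of 38 methylated reads against 56.2% of 16 reads. Plagl1 was thus low at p23 and closer to the wild type in the 2i/L keratinocytes, where Grb10 was low in both. Mest was higher at p23 than its 5.36% ± 5.59 in 2i/L p20 (SD, n = 3), by 11.9 points with no overlap of libraries, whereas the libraries of those groups overlapped at Plagl1 and Grb10. Differences between regions were not tested.

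**Figure D5:**
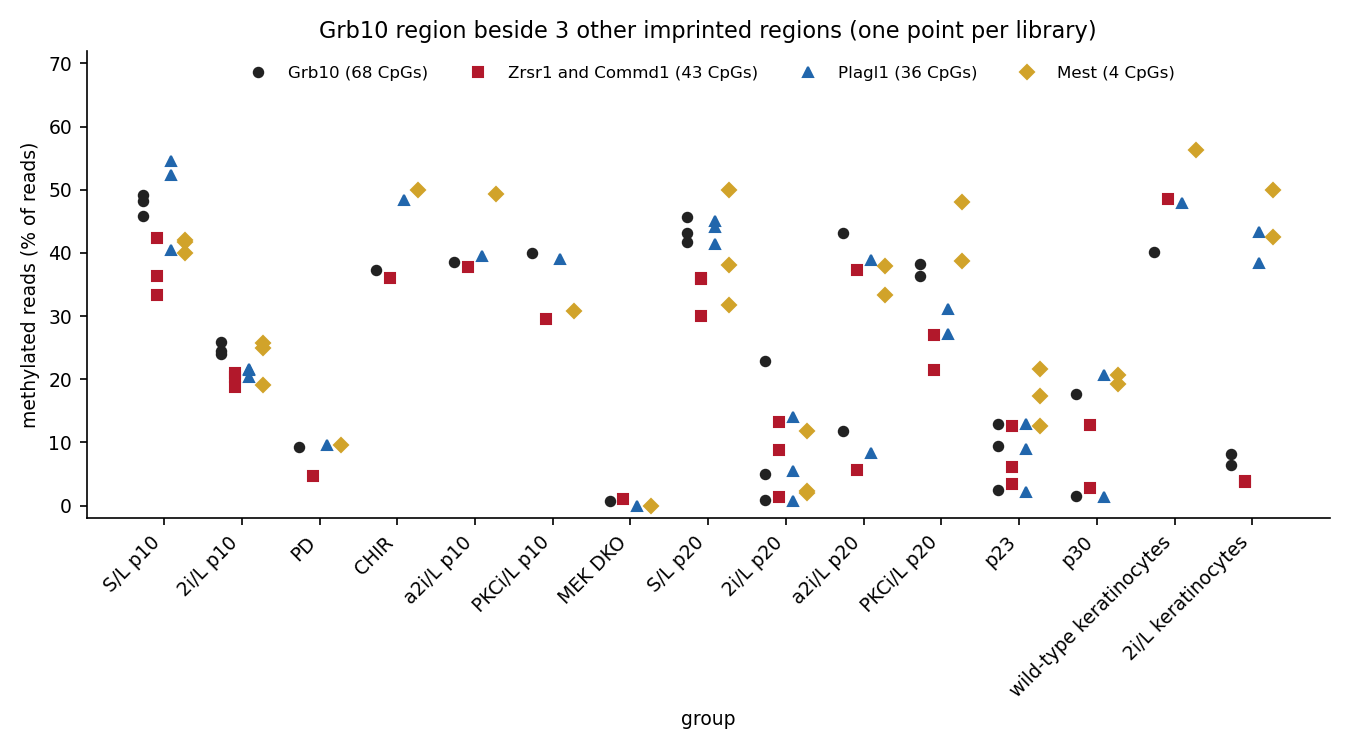
Methylated reads (%) per library at the Grb10 region (68 CpGs) and at Zrsr1 with Commd1 (43 CpGs), Plagl1 (36 CpGs) and Mest (4 CpGs), by group; each point is a library. In the 2i/L keratinocytes Grb10 (6.41 and 8.15%) and Zrsr1 with Commd1 (3.78 and 3.87%) lie low, whereas Plagl1 (38.4 and 43.3%) and Mest lie apart from them.

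The autosomal windows whose levels over the 29 libraries were most like those of the region included 3 of the Zrsr1 and Commd1 locus. Likeness was the root mean square difference in level over the 29 libraries, with a median of 30.1 points over 76309 windows. It was 7.54 points for chr11:22872010-22872499, 7.61 for chr11:22871863-22871999 and 9.57 for chr11:22872509-22872992. The other two of the 5 nearest were chr6:58856628-58856871, at 8.51 points, and chr2:174125015-174125462, at 9.26 points. Both were low at p23, at 5.81% and 13.5%, and in the 2i/L keratinocytes, at 9.50% and 9.52%. These libraries share lines and coverage sets, so the likeness is a description. Expression of Grb10 was not analysed here.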

How the data were processed

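RRBS data of 29 libraries were used. The authors deposited 1 list of CpGs per library. In each deposited file a text field gives methylated over all reads of a CpG, both strands together, and a score holds its whole part after multiplication by 1000, which was checked on all lines. BSMAP 2.89 and the build mm9 are named in the submitters' processing notes. The sources used here do not state read filters, trimming or conversion rates. Bisulfite conversion was done on pools of 12 barcoded reactions, per the labels' protocols.

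Reads were summed over the CpGs of the interval with at least 1 read in all 29 libraries, and over 500 bp windows with 10 or more reads in every library. Autosomal windows also needed 3 such CpGs. A window was counted as lower or higher when group means differed by at least 20 percentage points and no libraries overlapped. The members and lists were chosen with earlier results of these data known, so no test was made. The text names every kept window of the interval, the deepest CpG of each, the 5 most similar autosomal windows and 3 comparison loci. The promoter placement, which needed 10 matching CpGs, the coverage sets, the counts of windows still lower and the rank among intermediate windows were added after the data were seen. Coverage sets come from correlations of log2 read depth. Replicates are cell lines; the 2i/L keratinocyte libraries carry only numbers. A read was counted at every CpG it covers, and reads carry no molecular identifiers. Wilson 95% intervals treat these counts as independent, so they are too narrow even for counting error. They leave out all other variation. The window rule was tried on simulated counts without spread between lines, with large changes and for 2i/L p10 against S/L p10 only. That does not cover changes near 20 points, smaller groups or lines that differ. Alternatives were other read minimums, the mean over CpGs, other windows, leaving out each library, and differences within lines. Python 3.11.15 with numpy 2.4.6, pandas 2.3.3 and matplotlib 3.10.9 was used.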

Additional observations from a re-analysis of the deposited data

How the results depend on the processing

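Of 138 alternative values over 16 comparisons of the region's level and 1 count of windows, 132 stayed within 1 SD of the spread between replicates, or within 1.5 times for the count, and 6 did not. On the 31 CpGs with 5 or more reads in every library, S/L p20 minus S/L p10 was -1.11 points, PKCi/L p20 minus S/L p20 -10.7, CHIR minus S/L p10 -4.64, a2i/L p10 minus S/L p10 -6.42 and the 2i/L minus the wild-type keratinocytes -25.7. On each library's own CpGs with 10 or more reads the keratinocyte difference was -8.82. The cause was not tested, though the wild type then rests on 3 CpGs. None of the 68 CpGs had 10 reads in every library, so that planned minimum gave no value. Leaving out single libraries (73 values) moved no difference by more than 1 SD, but it could not have done so. Dropping 1 library shifts the mean of its group by less than the SD of that group. The replicate block, taken as differences within lines (14 values, for example -40.1 for p30 minus S/L p20 in J-37), moved none either. Where both groups hold J-34, J-35 and J-37, it equals the main difference by arithmetic. These values were thus bound to count among the 132. Means over CpGs (16 values) moved no difference by more than 1 SD. Where lines differ widely the SD is itself wide, so staying within it says little about stability: a2i/L p20 minus S/L p20 ran from -31.8 to -0.374 on leaving out a library. Between overlapping groups, p30 minus p23 changed sign within J-37 (-0.956), on the CpGs with 5 or more reads (-0.289), without p30 J-35 (-6.69) and without p23 J-37 (-1.55). The difference of p23 from 2i/L p20 did so on the CpGs with 5 or more reads (0.919), without p23 J-37 (1.53) and without 2i/L p20 J-34 (5.31). With the windows past 20 points counted over the 16 comparisons, 20 of 48 became 29 of 64 with windows shifted by 250 bp, 15 of 32 with 1000 bp windows and 24 of 48 at 10 points. Depth limits single CpGs and the wild-type keratinocytes most.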
